A study of Mus musculus with 44 samples.

Results

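Translocation junctions were counted at 4 places in the mouse genome, in or beside the genes Sc5d, Jmy, Txnrd1 and Ralb, where the mm10 reference holds an 8-base word that differs from the AsiSI recognition motif by 1 base. The places were chosen because junctions recurred there although no exact motif lies nearby, so their junction numbers are a description and were not tested. A junction belonged to a site when its prey position lay within 500 bp of the word. Of 133105 counted junctions in 32 libraries (148726 deposited), 697 lay at the 4 sites, 690 of them in 26 libraries of cells carrying AsiSI and 7 in 6 libraries made from a Cas9 bait.

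The libraries came from mouse embryonic fibroblasts of C57BL/6 background, which all titles call wild type. In the paper, the AsiSI experiments used a separate line carrying inducible AsiSI fused to a truncated estrogen receptor. The Cas9 experiments used wild-type fibroblasts, so AsiSI and Cas9 libraries also differ in cell line. Libraries were made by high-throughput genome-wide translocation sequencing (HTGTS), which reads from a known broken end, the bait, into the DNA it was joined to, the prey. In the AsiSI libraries, doxycycline (3 µg per ml, 24 h) induced the nuclease and 4-hydroxytamoxifen (4OHT, 1 µg per ml, 6 h) brought it to the nucleus, and the bait was the AsiSI break on chromosome 2 in the 5′ part of Rsu1. CK-666 (100 µM), an inhibitor of the actin-branching ARP2/3 complex, was given in 6 libraries and DMSO in another 6. Wiskostatin (3 µM), an inhibitor of the ARP2/3 activator N-WASP, had 2 treated and 2 control libraries. The non-polymerizing actin R62D, fused to a nuclear localization signal, had 2 libraries and 2 empty-vector controls. NU7441 (10 µM), an inhibitor of the end-joining kinase DNA-PKcs, had 3 treated and 3 control libraries. The Cas9 libraries (3 with DMSO, 3 with CK-666) had a single bait break made by Cas9 in wild-type fibroblasts, although their labels also name 4OHT. Treated and control libraries with the same replicate number in their titles were compared as pairs.

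AsiSI is a rare-cutting restriction enzyme that leaves short single-stranded 3′ overhangs, and methylation of the CG pairs in its motif blocks it, so that in living cells it breaks mainly unmethylated copies near promoters. A broken end is usually rejoined by non-homologous end joining, with little or no change of sequence, or, after the ends have been trimmed (resected), by routes that use short stretches of identical bases, called microhomology. Translocation arises when ends of different breaks are joined. Sc5d encodes a sterol desaturase of cholesterol synthesis, Jmy a p53 cofactor that also nucleates actin and activates the ARP2/3 complex, Txnrd1 the cytosolic thioredoxin reductase, and Ralb a small GTPase of the Ras family.

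The words and their flanks, read from the RefSeq copy of GRCm38/mm10 on the plus strand, are shown with that of the bait because the base that differs from the motif sets which bases bait and prey can share. Capitals mark the 8-base word.
Bait, chr2:13271306-13271335: accctgtcccaGCGATCGCgcaggcgcaca
Sc5d, chr9:42264136-42264165: cggggatcctcGCGACCGCccgcgggtcct
Jmy, chr13:93498835-93498864: gcgtggcactgGCGGTCGCatctcgggatt
Txnrd1, chr10:82859677-82859706: ccttggaattgGCAATCGCatgtttcctag
Ralb, chr1:119504482-119504511: ctaggaggcctGCAATCGCgcggagagcgt

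Counted from 1 at the 5′ end of the motif, with the motif base first and the mm10 base last, the words differed from the motif by T5C at Sc5d, by A4G at Jmy and by G3A at both Txnrd1 and Ralb. The Sc5d and Jmy words are reverse complements of each other, and the Txnrd1 and Ralb words are identical. All 4 lie inside the transcribed part of their gene, close to its start. The Sc5d word was in the 5′ untranslated exon, 49 bp downstream of the transcription start site. The Jmy word was in coding sequence, 887 bp downstream of the start. The Txnrd1 and Ralb words were intronic, 485 and 297 bp downstream of the starts. Among 298 exact motifs with at least 10 junctions, 246 (82.6%) were within 1 kb of a start. GC content over 200 bp was 74.5% at Sc5d, 75.5% at Jmy and 64.5% at Ralb, around the median of 67% for those motifs, and 46.5% at Txnrd1. The nearest exact motif was 3268630 bp away for Sc5d, 888115 bp for Jmy, 2325517 bp for Txnrd1 and 4541022 bp for Ralb.

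Sc5d held 298 AsiSI-library junctions, Jmy 206, and Txnrd1 and Ralb 93 each. These were 0.607% of the 113691 junctions counted in the AsiSI libraries, whereas the 1108 exact motifs other than the bait, called listed motifs in the plots, took 69.1% (78577 junctions, at 377 motifs). The 4 sites were ordinary among the exact motifs in use, of which the 298 with at least 10 junctions had a median of 154 and a range of 10 to 2827. Sc5d would have ranked 74, Jmy 119, and Txnrd1 and Ralb 201. The exact motifs next above and below were Ing1 (299) and Memo1 (297) for Sc5d, Dusp15 (206) and Dyrk3 (202) for Jmy, and Tcf4 (94) and Adam11 (91) for Txnrd1 and Ralb.

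The junctions clustered tightly on the word. At Sc5d 202 of 298 positions were within 10 bp of the break position, at Jmy 147 of 206, at Txnrd1 79 of 93 and at Ralb 76 of 93. Between 100 and 500 bp there were 13, 6, 2 and 1, and from 500 to 1000 bp a further 11, 2, 2 and 3, as the plot of junction positions shows. Counting each position and strand once per library left 214, 153, 78 and 75.

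Words with 1 mismatch are common in the genome, and the 4 sites stood out from the rest of them by the same counts that chose them. Of 71535 such words in mm10, 70397 were more than 10 kb from an exact motif and from the bait. Exactly 4 of these (0.00568%) had at least 10 junctions within 10 bp, the words at Sc5d, Jmy, Txnrd1 and Ralb, and the next highest word had 3. Within 500 bp, 8 words (0.0114%) had at least 10. One of the other words lay 232 bp from the Sc5d word, and 295 of its 301 junctions were also counted at Sc5d, with none within 10 bp of that word itself. The remaining words, on chromosomes 17 (39846229 and 39843786) and 4 (31353930), had 14, 10 and 10 junctions, of which 1, 0 and 0 were within 10 bp. They had 3, 6 and 23 junctions in the Cas9 libraries. Most words with the sequence of a member held no junction. Of 10895 with that of Sc5d or Jmy, 6 had any within 10 bp, Sc5d and Jmy included, and of 9253 with that of Txnrd1 and Ralb, 5.

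Few reads could show which base the prey carried where mm10 differs from the motif. Reads whose prey alignment covered the position beyond the end of the bait alignment, numbered 2 at Sc5d (both with the motif base), 1 at Jmy (with the mm10 base), 0 at Txnrd1 and 2 at Ralb (both with the motif base). More often the base lay just outside the prey alignment and past the bait alignment, where a base equal to mm10 would mostly have been drawn into the prey alignment, so that these reads are weighted against the mm10 base. There the motif base was read in 20 of 21 reads at Sc5d, 23 of 23 at Jmy, 2 of 2 at Txnrd1 and 4 of 4 at Ralb. Both kinds of read pooled do not depend on whether the base was drawn into the prey alignment. Pooled, the motif base was read in 22 of 23 at Sc5d, 23 of 24 at Jmy, 2 of 2 at Txnrd1 and 6 of 6 at Ralb. At exact motifs the same pooling gave the motif base in 96.9%, 93.4% and 92.6% of reads at motif positions 3, 4 and 5. In reads where both alignments covered the position, so that the base can have come from either end, the motif base was read 46 times and the mm10 base 8 times at Sc5d, 35 and 7 at Jmy, 23 and 0 at Txnrd1 and 26 and 0 at Ralb. The name of one-mismatch word thus rests on the mm10 reference, and the sequence of these cells at the words was not tested.

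Away from the word, Jmy and Txnrd1 reads differed from mm10 at fixed positions. With the mm10 base first and the read base last on the plus strand, 87 of 89 reads at Jmy had G93498831A and 14 of 14 had G93498749A. At Txnrd1 17 of 17 had A82859609G and 23 of 24 had A82859635G. The Cas9-library reads that covered G93498831A, A82859609G and A82859635G all carried them (2 of 2 each). They were the only Cas9-library junctions at Jmy and Txnrd1. At each site, 1 of the 2 had the same join form as a junction in an AsiSI library of the same sequencing run. Sc5d and Ralb had none in 257 and 316 positions read at least 5 times. A recurrent difference, one seen in at least 80% of at least 5 reads, occurred at 3.45 per 1000 positions over the 4 sites and 0.314 per 1000 over the exact motifs, 6.33% of which (19 of 300) had one.

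The sites, chosen for recurrence, had junctions in most AsiSI libraries. Sc5d and Jmy had junctions in all 26 AsiSI libraries, Ralb in 22 and Txnrd1 in 21. The exact motifs next above and below them had junctions in 23 to 26. Since the libraries held from 335 to 17479 counted junctions, numbers are given per 1000 counted junctions of the library, which is a relative share: a fall in all translocations together would leave it unchanged. Over the 26 libraries Sc5d had 2.43 ± 0.949 per 1000 (SD), Jmy 1.95 ± 1.08, Txnrd1 0.745 ± 0.509 and Ralb 0.811 ± 0.589. The libraries of Txnrd1 (0 to 1.77) and Ralb (0 to 3.03) overlapped, and the ranges of Sc5d (0.621 to 4.88) and Jmy (0.622 to 5.06) were nearly the same.

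**Figure D1:**
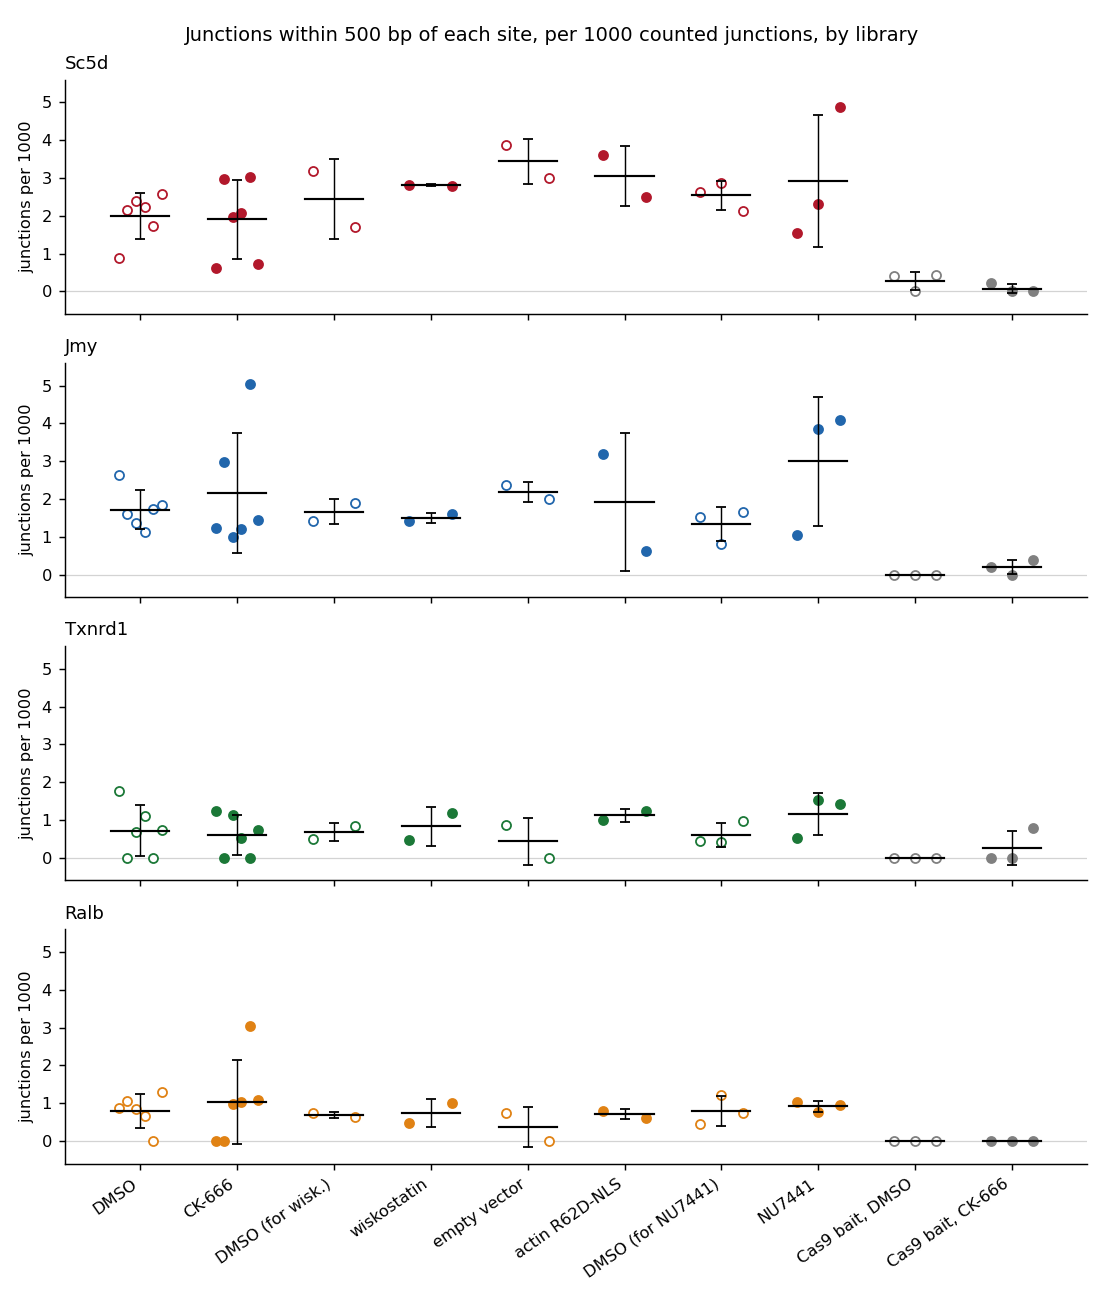
Junctions per 1000 counted junctions at each site (y axis) in every library, grouped by condition (x axis); each point is a library (open for controls), lines are group means and bars their SD. The AsiSI libraries range from 0.621 to 4.88 at Sc5d and from 0.622 to 5.06 at Jmy, and no Cas9 library exceeds 0.785 at any site.

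At Sc5d the 6 DMSO libraries had 0.883 per 1000 at the lowest, 2.19 at the median and 2.58 at the highest. The 6 CK-666 libraries had 0.621, 2.02 and 3.03, so that the groups overlapped over almost their whole range. Wiskostatin libraries had 2.82 and 2.78 against 3.18 and 1.69 in their controls, and actin R62D libraries 3.60 and 2.49 against 3.86 and 3.01, each pair given in replicate order. The 3 NU7441 libraries had 1.56, 2.31 and 4.88 against 2.63, 2.87 and 2.12. Only in replicate 3 did NU7441 lie above its control.

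At Jmy the DMSO libraries had 1.12, 1.66 and 2.65 per 1000 at the lowest, median and highest and the CK-666 libraries 0.981, 1.34 and 5.06. Wiskostatin libraries had 1.41 and 1.59 against 1.42 and 1.90, and actin R62D libraries 3.20 and 0.622 against 2.37 and 2.01. The NU7441 libraries had 1.04, 3.85 and 4.10 against 1.53, 0.819 and 1.66. In pairs 2 and 3 NU7441 was higher by more than the control libraries differed among themselves, and in the first it was lower.

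Txnrd1 and Ralb had 0 to 17 junctions per library, so single libraries say little about them. Txnrd1 had 0 to 1.77 per 1000 with DMSO (median 0.711) and 0 to 1.24 with CK-666 (median 0.622), and Ralb 0 to 1.29 (median 0.870) and 0 to 3.03 (median 1.01). A library with 0 junctions allows up to 3, which was 1.60 to 8.96 per 1000 in the AsiSI libraries listed at 0 for either site. In replicate order, Txnrd1 had 0.471 and 1.19 with wiskostatin against 0.503 and 0.844, and 1.00 and 1.24 with actin R62D against 0.872 and 0. Ralb had 0.471 and 0.994 with wiskostatin against 0.754 and 0.633, and 0.801 and 0.622 with actin R62D against 0.748 and 0. No treated group of these lay apart from its controls except actin R62D at Txnrd1, where both libraries were above both controls. With NU7441 Txnrd1 had 0.519, 1.54 and 1.42 per 1000 against 0.438, 0.410 and 0.973, higher in each of the 3 pairs. Ralb had 1.04, 0.769 and 0.945 against 0.438, 1.23 and 0.744.

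In the Cas9 libraries the 4 sites together had 7 junctions among 19414 (0.0361%), 3 at Sc5d, 2 at Jmy, 2 at Txnrd1 and 0 at Ralb. The DMSO libraries had 0.394, 0 and 0.421 per 1000 over the 4 sites and the CK-666 libraries 0.423, 0 and 1.18, all below the lowest AsiSI library. Their exact motifs held 659 junctions (3.39%), so the 4 sites made up 10.6 per 1000 exact-motif junctions there and 8.78 in the AsiSI libraries. Of the 7 junctions, 5 had the same prey position, strand, bait end and overlap as a junction in an AsiSI library, 4 of them in a library of the same sequencing run. At exact motifs this held for 585 and 480 of the 659. The Cas9 libraries shared 1 run with AsiSI libraries, and the part of that in these junctions was not tested.

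Treatment effects at a site were fitted on the shares of 302 sites (298 exact motifs and the 4 sites) in limma, within pairs, with Benjamini-Hochberg adjustment over all 302. NU7441 changed 10 sites (3.31% of those tested, 2 higher and 8 lower) at an adjusted p under 0.05, and none was a member. The direction of these calls moved with the setting, to 10 higher and 10 lower with exact-motif junctions as the library total and to 19 higher and 6 lower in a fit of the NU7441 experiment alone. CK-666, wiskostatin and actin R62D each changed 0 sites (0% of those tested), with 14, 9 and 11 sites at an unadjusted p under 0.05. The plot of treatment effects sets the 4 sites beside the exact motifs.

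With CK-666 the log2 fold change in share was -0.13 at Sc5d (95% interval -0.75 to 0.50; limma adjusted p = 0.959), higher than the control in 2 of 6 pairs. It was 0.18 at Jmy (-0.52 to 0.89) and 0.38 at Ralb (-0.57 to 1.32), each higher in 3 of 6 pairs. The fitted value at Txnrd1 was 0.43 (-0.43 to 1.29), although CK-666 was higher in 1 pair and lower in 3, and both libraries were at 0 in the others. Without the second pair, whose CK-666 library held 335 counted junctions and 0 at Txnrd1, it was 0.017. The intervals span both directions, and leave room for a rise of over 2-fold at Txnrd1 and Ralb. Without the fifth pair, the Ralb value turned to -0.27. The median over the 4 sites was 0.28, beside 0.06 over all sites, and became -0.17 beside 0.03 without the fifth pair.

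With NU7441 the log2 fold change was 1.00 at Jmy (95% interval 0.01 to 2.00), higher in 2 of 3 pairs, and its limma p of 0.0482 became 0.290 after adjustment. It was 0.48 without the second pair and 1.68 without the first. At Txnrd1 it was 0.91 (-0.31 to 2.13; limma adjusted p = 0.428), higher in 3 of 3 pairs, and 0.54 without the second pair. Ralb had 0.45 (-0.89 to 1.78) and Sc5d 0.14 (-0.74 to 1.02), neither past the threshold, and Ralb ran from 0.047 to 0.83 with 1 pair left out. The median of the 4 was 0.68 and that of all sites 0.35 on this scale, an order that turned to 0.51 and 0.57 without the second pair. Of the 3 pairs, 2 were read in 1 sequencing run and the third in another. Without the third pair, the Sc5d value turned to -0.39.

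The experiments with 2 pairs were wider still. Wiskostatin gave log2 fold changes of 0.28 at Sc5d, -0.09 at Jmy, 0.28 at Txnrd1 and 0.06 at Ralb (limma adjusted p = 0.991 for each). Actin R62D gave -0.21, -0.49, 0.93 and 0.52 (limma adjusted p from 0.989 to 0.998). Both wiskostatin libraries were below their controls at Jmy, and both actin R62D libraries were above theirs at Txnrd1 and at Ralb, where 1 control had 0 junctions. With 1 pair left out the actin R62D values ran from 0.24 to 1.63 at Txnrd1 and from 0.15 to 0.90 at Ralb, and a pseudocount of 1 gave 0.58 and 0.25.

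**Figure D2:**
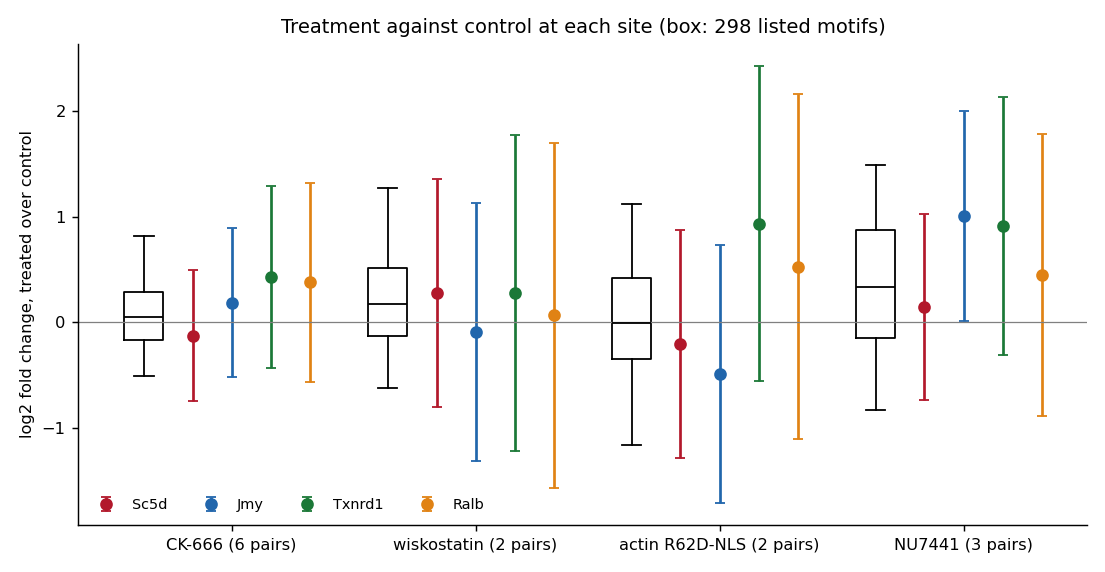
Log2 fold change in junction share, treated over control (y axis), for each experiment (x axis); coloured points are the 4 sites with 95% intervals from limma, and boxes show the quartiles of 298 exact motifs with whiskers from the 5th to the 95th percentile. Every interval of a member crosses 0 except that of Jmy with NU7441 (0.01 to 2.00), whose adjusted p was 0.290.

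How the ends were joined was not used to choose the sites. Each class of join at a site was set against what the exact motifs of the same library would give, by flipping the sign of whole libraries at random (a 2-sided permutation test, n = 26 libraries, 100000 draws, smallest p 1e-05), with adjustment over 278 sites of at least 20 junctions. The expectation weights exact motifs by their junctions, so those with the most junctions count most in it. Because exact motifs differ widely among themselves, large shares of all sites passed this test in most classes, and the members are read against those shares.

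Prey joined from either side of the break. The prey lay on the plus strand, reading to the right of the word, in 144 of 298 junctions at Sc5d (48.3%) and 99 of 206 at Jmy (48.1%), both about even. Txnrd1 had 57 of 93 (61.3%) and Ralb 56 of 93 (60.2%). Against an expected 50.9% the Ralb share was higher (permutation test, adjusted p = 0.0247) and against 51.0% that of Txnrd1 was not past the threshold (adjusted p = 0.0612). In this class 48.2% of all sites were called.

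Most prey ends had lost few bases. Prey starts were here counted along the prey strand from the first base of the overhang, unlike the distances from the break position given above. They lay within 10 bp in 66.4% of junctions at Sc5d, 70.4% at Jmy, 84.9% at Txnrd1 and 79.6% at Ralb, beside 66.0% at exact motifs. Starts more than 10 bp away, on the side that means loss of prey bases, made up 11.7% at Jmy against an expected 20.6% (permutation test, adjusted p = 0.00157; 45% of all sites called). Sc5d had 22.5%, and Txnrd1 and Ralb 14.0% each, none past the threshold. Of 274 exact motifs, 192 had a higher share of such starts than Jmy and 82 a lower one. When each exact motif had the same weight, the Jmy difference was -4.23 points, not past the threshold. Among the junctions beyond 10 bp, the median loss was 24 bp at Sc5d, 15.5 bp at Jmy, 20 bp at Txnrd1 and 18 bp at Ralb, and 19 bp at exact motifs. The largest was 392 bp at Sc5d and 73 bp at Jmy. Bait ends more than 10 bp from their break made up 8.60% to 13.1% at the 4 sites and 11.5% at exact motifs, and no member was called (23.7% of all sites were).

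Some prey began more than 10 bp beyond the break, on the far side of the word, and read toward it. Of 77 such junctions at the 4 sites the prey alignment reached the word in 12, and the others ended a median of 19 bp short of it, while 3513 of 10959 reached it at exact motifs. Prey of this kind made up 1 of 93 junctions at Txnrd1 (1.08%) against an expected 13.7% (permutation test, adjusted p = 3.81e-05; 70.9% of all sites called). Ralb had 6.45% against 13.8% (adjusted p = 0.0301). Sc5d had 11.1% and Jmy 18.0%, neither past the threshold. Of 274 exact motifs, 165 had a higher share than Ralb and 109 a lower one. When each exact motif had the same weight, the Ralb difference was -4.40 points, not past the threshold.

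The length of the overlap between bait and prey differed between the sites, also between Txnrd1 and Ralb, whose words are identical. Overlaps of at least 6 nt were present in 58.1% of Ralb junctions against an expected 29.5% (permutation test, adjusted p = 3.31e-05; 81.7% of all sites called), above expectation in 22 of 22 libraries with junctions. They were fewer than expected at Sc5d, 18.5% against 27.6% (adjusted p = 0.000109), and at Jmy, 19.4% against 28.9% (adjusted p = 0.000437). Txnrd1 had 25.8% against 28.4% (adjusted p = 0.382). Overlaps were measured on alignments to mm10, which can stop at the base that differs from the motif and so give a shorter overlap. Among joins in register, described below, 33 of 45 with minus-strand prey at Sc5d had 5 nt. With plus-strand prey, 28 of 34 had 4 nt at Jmy and 24 of 28 had 5 nt at Txnrd1. The part of this in the differences was not tested. The threshold mattered where the commonest overlap was 5 nt: counted from 5 nt, the difference turned to 1.80 percentage points above expectation at Sc5d and 21.2 at Txnrd1. When each exact motif had the same weight, the differences were -23.1 points at Sc5d, -23.2 at Jmy, -16.5 at Txnrd1 (permutation test, adjusted p = 8.3e-05) and 14.2 at Ralb.

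**Figure D3:**
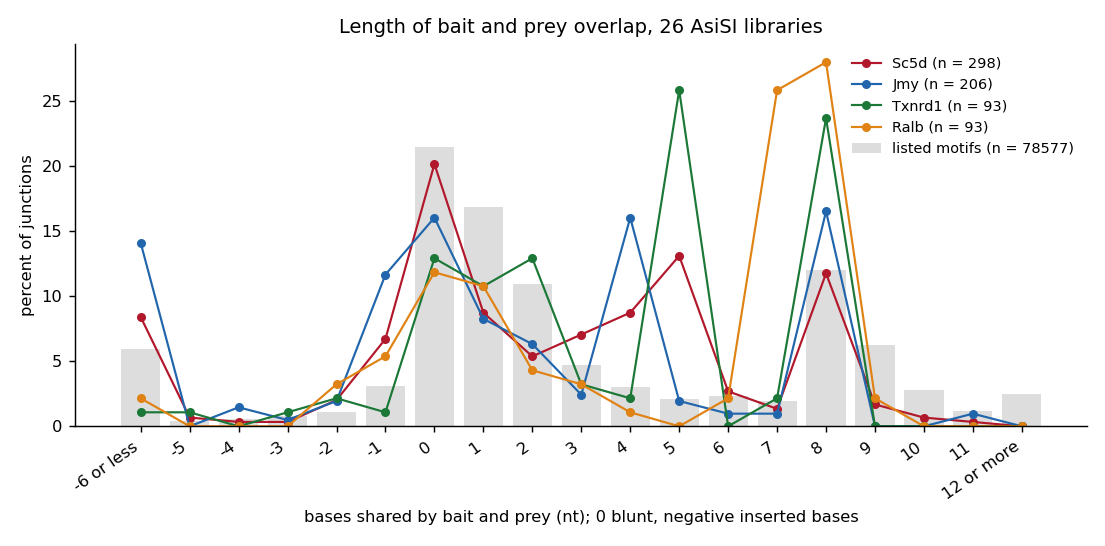
Share of junctions (y axis, percent) by length of the overlap between bait and prey (x axis, nt; values below 0 are inserted bases, and the outermost classes are grouped) for the 4 sites (lines) and the exact motifs (bars). Peaks stand at 5 and 8 nt at Sc5d, 4 and 8 nt at Jmy, 5 and 8 nt at Txnrd1, and 7 and 8 nt at Ralb.

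The commonest joins kept every base of the word. At Jmy the commonest had an 8-nt overlap with minus-strand prey (32 junctions, in all 26 libraries), and the next a 4-nt overlap with plus-strand prey (28 junctions, 22 libraries). At Sc5d they were an 8-nt overlap with plus-strand prey (34 junctions, 22 libraries) and a 5-nt overlap with minus-strand prey (33 junctions, 21 libraries). At Txnrd1 a 5-nt overlap with plus-strand prey led (24 junctions, 21 libraries) and at Ralb an 8-nt one with minus-strand prey and a 7-nt one with plus-strand prey, 24 junctions each.

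All of these were joins in register, in which no base was lost or gained between the bait word and the prey word. In one orientation of such a join the alignment stopped at the mismatch and the overlap equalled the run of bases shared after it, 5 nt at Sc5d and Txnrd1, 4 nt at Jmy, and 7 nt at Ralb, where the shared run went on 2 bases past the word. In the other orientation the alignment ran through the mismatch and the overlap was the whole word of 8. Of joins in register, 34 of 44 plus-strand ones at Sc5d, 32 of 34 minus-strand ones at Jmy, 21 of 23 at Txnrd1 and 24 of 24 at Ralb had that 8-nt overlap.

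Joins in register made up 29.9% at Sc5d (89 of 298; 95% exact binomial interval 24.7% to 35.4%, which covers counting error only, as do the next), 33.0% at Jmy (26.6% to 39.9%), 54.8% at Txnrd1 (44.2% to 65.2%) and 57.0% at Ralb (46.3% to 67.2%). Against expected shares of 26.5% and 27.8%, Txnrd1 and Ralb were higher in each of the 21 and 22 libraries that had junctions (permutation test, adjusted p = 2.87e-05 for both; 86% of all sites called). Sc5d against 25.7% (adjusted p = 0.0378) and Jmy against 27.0% (adjusted p = 0.00528) were higher by 4.14 and 6.03 percentage points. When each exact motif had the same weight, these differences turned to -10.1 points at Sc5d and -8.04 at Jmy, and Txnrd1 and Ralb stayed higher by 13.9 and 14.5 points.

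The share of joins in register went with the number of junctions at a site. Over 274 exact motifs it ran from 7.56% to 90.5% with a median of 38.7%, and its Spearman correlation with the junction number was -0.93, over motifs that share libraries and differ in depth. Exact motifs with like numbers had like shares: Ing1 31.8% and Memo1 31.3% beside Sc5d, Dusp15 32.5% and Dyrk3 30.2% beside Jmy, and Tcf4 48.9% and Adam11 56.0% beside Txnrd1 and Ralb. The deposited tables hold few copies of one join per library, since 562 of 625 join forms at the 4 sites (89.9%) were listed once in their library and the most was 4. At exact motifs 92.1% were listed once and the most was 5. The part of duplicate removal in the relation was not tested.

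**Figure D4:**
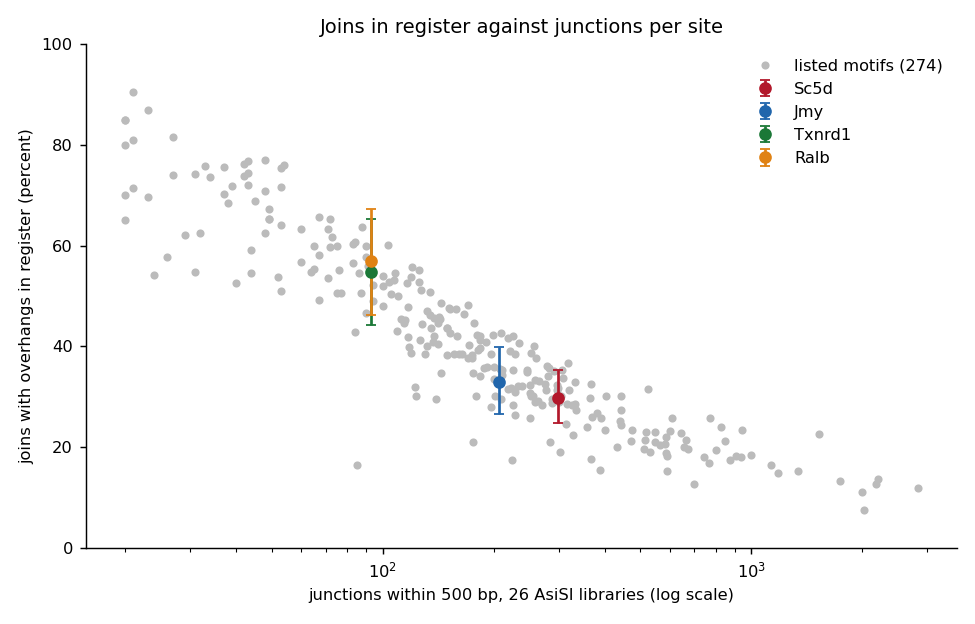
Share of joins in register (y axis, percent) against the number of junctions within 500 bp in the 26 AsiSI libraries (x axis, log scale); grey points are 274 exact motifs and coloured points the 4 sites with 95% exact binomial intervals. The 4 sites, at 29.9%, 33.0%, 54.8% and 57.0%, lie within the band of exact motifs with like junction numbers.

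By condition, joins in register at the 4 sites together made up 53.2% of 111 junctions with DMSO and 59.1% of 88 with CK-666. They were 31.9% of 91 with NU7441 against 23.5% of 132 in its controls, 41.8% of 55 against 27.7% of 94 for wiskostatin, and 37.3% of 51 against 32.4% of 68 for actin R62D. At exact motifs the corresponding values were 34.1% and 36.7%, 27.7% and 17.4%, 30.1% and 22.7%, and 26.1% and 22.9%. Junctions were pooled over libraries, and replicate 3 gave 72 of the 91 with NU7441 and 96 of the 132 in its controls. Replicate 1 gave 70 of the 94 in the wiskostatin controls, 43 of 51 with actin R62D and 63 of 68 in its controls. The differences between treated and control libraries were not tested at the 4 sites. All 7 junctions in the Cas9 libraries were in register, as were 410 of 659 (62.2%) at exact motifs there.

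Blunt joins, with neither overlap nor insertion, were scored by alignment to mm10. By that score they were less frequent than expected at Ralb, 11.8% against 21.3% (permutation test, adjusted p = 0.00629; 34.5% of all sites called), and at Jmy, 16.0% against 21.3% (adjusted p = 0.0494). Sc5d had 20.1% and Txnrd1 12.9%, not past the threshold. Of 274 exact motifs, 163 had a higher share than Jmy and 111 a lower one, and for Ralb these numbers were 212 and 62. When each exact motif had the same weight, neither Jmy (-1.18 points) nor Ralb (-4.97) was past the threshold. A motif base read between the bait and prey alignments, where mm10 differs, counts as inserted, so such a join is not scored as blunt. The motif base lay just outside the prey alignment and past the bait alignment in 23 reads at Jmy, which had 33 blunt joins. At Ralb these numbers were 4 and 11. The part of this in the blunt shares, ranks and calls was not tested, so the calls hold for the mm10 alignment only.

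By alignment to mm10, Jmy stood out for inserted bases. Insertions made up 61 of its 206 junctions, 29.6% against an expected 11.7% (permutation test, adjusted p = 0.000524; 60.8% of all sites called), higher in 18 of 26 libraries, and only 2 of 274 exact motifs had a higher share. Sc5d had 55 of 298, 18.5% against 11.9% (adjusted p = 0.00643), with 27 exact motifs above it. Txnrd1 was lower, 6.45% against 11.9% (adjusted p = 0.0392), and Ralb had 10.8% against 12.0% (adjusted p = 0.761). Of the exact motifs, 161 had a higher share than Txnrd1 and 113 a lower one. With equal weight for each, the Txnrd1 difference was -2.55 points, not past the threshold. Insertions of 1 nt were 24 of the 61 at Jmy and 20 of the 55 at Sc5d. These were 11.7% and 6.71% of junctions, beside 3.10% at exact motifs. A motif base read between the 2 alignments, where mm10 differs, is counted as inserted. Its part in the insertion shares and ranks was not tested.

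Many of the longer insertions at Jmy and Sc5d matched the site's own flank. An insertion of at least 8 nt was called a flank match when its whole length matched the flank with at most 2 mismatches. The match had to lie beside the word on the strand opposite to the prey, in register with the bait end. This class was noticed in these data and was not tested. At Jmy 24 of 29 insertions of at least 8 nt were such matches (11.7% of its junctions, 12 libraries), and at Sc5d 21 of 23 (7.05%, 11 libraries). Txnrd1 and Ralb had 0 of 1 each. The same bases also stood in the bait part of the read for 9 of the 21 at Sc5d. This held for 0 of the 24 at Jmy and 0 of those at exact motifs. For the 9 at Sc5d the flank is 1 of 2 sequences matched, and which gave the insert was not tested. The other 12 at Sc5d came from 8 libraries, and its share of 7.05% and its rank below include all 21. At exact motifs 2849 of 4136 matched on the opposite strand (3.63% of junctions) and 49 on the same strand, and 189 of 274 motifs had at least 1. Their median share was 1.56% and the highest 18.3%, with 9 motifs above Jmy and 40 above Sc5d.

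All 45 junctions at Jmy and Sc5d with a flank match had prey that began beyond the break and read toward it. The bait was thus followed by bases that match the flank in reverse, and then by prey that began further out on that flank and read back in the direction of the word. The commonest matches are shown in the reads' own bases, and for Jmy also as mm10 has them, on the minus strand of GRCm38/mm10, with capitals at the only base that differs.
Jmy in reads, chr13:93498820-93498845: cagtgccacgccagTcccgccggcgc
Jmy in mm10, chr13:93498820-93498845: cagtgccacgccagCcccgccggcgc
Sc5d in reads and mm10, chr9:42264138-42264145: aggatccc
The Jmy segment was inserted in 10 junctions from 10 libraries, with prey that began 74 bp past the word, and it carried G93498831A in 10 of 10, the base that other Jmy reads had there. The Sc5d segment mostly stood in the bait part of the same read too, and its bases are part of the paper's nested primer. It was inserted in 9 junctions from 8 libraries, with prey that began 46 bp past the word. At Jmy 21 of the 24 lay with plus-strand prey, at Sc5d 11 of 21. By condition, Jmy had 5 of them with DMSO, 2 with CK-666, 5 with wiskostatin, 4 in its controls, 1 with NU7441, 3 in its controls and 4 in the actin controls. Sc5d had 7 with DMSO, 3 with CK-666, 3 with wiskostatin, 3 in the actin controls, 2 with actin R62D and 1 each in the other AsiSI groups.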

How the data were processed

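HTGTS libraries had been aligned to mm10 with BWA and passed by the authors through transloc_pipeline with default filters, a mapping quality above 30 and duplicate removal (versions not given in the sources used here). Each deposited table is 1 library and holds 1 junction per line with its genome positions, strands and read positions, not a read count. The sequencing depth behind a table and the reads of bait alone, to which the study normalised, were not used here, and 12 Hi-C samples were not analysed here. Shares are therefore per 1000 counted junctions, which exclude those within 10 kb of the bait and outside the nuclear chromosomes (335 to 17479 per library). Reads are PCR products without molecular identifiers, so intervals and the limit of 3 junctions behind a count of 0 cover counting error only.

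Exact motifs were the 1109 positions in the study's list, all of which held the motif in mm10 and which were all copies on these chromosomes. Sites were annotated with GENCODE M21. Overlap, insertion and lost bases were read from the bait and prey alignments to mm10. The members, lists and tests were chosen with earlier results of these data known.

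Treatment was fitted in limma 3.58.1 (R 4.3.3) with a mean-variance trend on log2((junctions + 0.5) / (library total + 1) × 1000), 26 libraries in 1 fit with the pair as a block, for 302 sites with at least 10 junctions. Replicate numbers come from the titles, and deviations of 2 libraries with the same number correlated by 0.0462 to 0.20 for CK-666, 0.140 for wiskostatin, 0.106 for actin R62D and 0.129 to 0.230 for NU7441. The study compares within replicates, so the block was kept throughout, but for CK-666 some of these correlations were under 0.1 and the number is no more than the title's. The labels number replicates without naming separate cultures, so p-values measure the spread between these libraries. In simulated NU7441 data over 302 sites, 4-fold falls were recovered at 23.67% of 30 changed sites and 2-fold falls at 2% of them, with on average 0.4 and 0 false calls. Join classes were tested by sign flips of libraries (SciPy 1.17.1, NumPy 2.4.6, pandas 2.3.3, pysam 0.24.0, Python 3.11.15, with plots by matplotlib 3.10.9), and a simulated shift of 10 percentage points was recovered at 40% of 30 changed sites among 278 (3 false calls) and 20 points at 93.3% (15 false calls). Joins in register, flank matches and equal weights for exact motifs were added after the data were seen. Genes named are those of the 4 sites, the bait, the exact motifs next above and below each site, and up to 5 other one-mismatch words with at least 10 junctions.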

Additional observations from a re-analysis of the deposited data

Results flagged for a closer look

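Of 10 values examined for a library far from the rest of its group, 2 stood out, both in replicate 5 of the CK-666 libraries with 4OHT. Ralb had 3.03 junctions per 1000 counted there, the highest of the 6, and the 4 sites together had 11.1 per 1000. That library held 989 counted junctions, of which 3 were at Ralb and 11 at the 4 sites, and chance alone marks about 1 in 20 groups.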

How the results depend on the processing

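No member passed the threshold for any treatment under any of the alternatives run. The number of sites that NU7441 changed, 10 with pairs as a block, was 3 without the replicate block, 4 with each position and strand counted once per library, 6 within 100 bp, 6 with a pseudocount of 1, 20 with exact-motif junctions as the total, 25 with only the NU7441 libraries and 2 to 9 when 1 pair was left out; the block changed no call of a member. Log2 fold changes of members turned in sign in places. With 1 pair left out, those for CK-666 ran from -0.33 to 0.16 at Sc5d, from -0.072 to 0.42 at Jmy and from -0.27 to 0.87 at Ralb, those for wiskostatin from -0.13 to 0.68 at Sc5d, from -0.25 to 0.061 at Jmy and from -0.44 to 0.57 at Ralb, that for actin R62D from -1.43 to 0.44 at Jmy, and that for NU7441 from -0.39 to 0.51 at Sc5d. In the CK-666 pairs of the first run Sc5d had 0.19 and Ralb -0.97. Counted once per position, Jmy with wiskostatin had 0.32 and Sc5d with NU7441 -0.046, and with exact-motif junctions as the total Ralb with wiskostatin had -0.047.

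In join classes, numbers are percentage points above or below expectation. In the 13 control AsiSI libraries alone, the sites called were 87 for strand, 49 for blunt joins, 74 for prey starts away from the break and 36 for bait ends away, and calls of members were lost for strand at Ralb (6.51), insertion at Sc5d (7.07) and Txnrd1 (-4.00), prey reading toward the break at Ralb (-5.28) and joins in register at Jmy (5.88) and Sc5d (4.57), while insertion at Ralb turned to 3.09. Counted once per position, 47 sites were called for blunt joins and 34 for bait ends, insertion at Sc5d lost its call (5.20) and bait ends at Jmy turned to -3.02. Beyond 20 bp, 0 sites were called for bait ends, where Jmy had -0.0065. Within 100 bp, insertion at Txnrd1 (-4.57) and prey reading toward the break at Ralb (-4.97) lost their calls. From 5 nt, long overlap turned to 1.80 at Sc5d and 21.2 at Txnrd1. With equal weight for exact motifs, blunt joins at Jmy (-1.18) and Ralb (-4.97), insertion at Txnrd1 (-2.55), prey starts at Jmy (-4.23) and prey reading toward the break at Ralb (-4.40) lost their calls, and joins in register at Sc5d (-10.1) and Jmy (-8.04), blunt joins at Sc5d (2.57), insertion at Ralb (1.59), prey reading toward the break at Sc5d (0.29) and bait ends at Txnrd1 (0.38) turned. Some calls of members were gained. Within 100 bp these were prey starts at Ralb (-5.71) and blunt joins at Txnrd1 (-8.76), and beyond 20 bp prey starts at Ralb (-4.69). With equal weight they were strand (12.2) and long overlap (-16.5) at Txnrd1. One-mismatch words with enough junctions within 500 bp numbered 16 from 1 kb off exact motifs, 13 at a minimum of 5 and 5 at a minimum of 20, and within 10 bp always 4. The causes were not tested.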
